A study of Squalius alburnoides and Squalius pyrenaicus with 4 samples.

Results

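The muscle microRNAs (miRNAs) dre-miR-1, dre-miR-133a, dre-miR-133b, dre-miR-133c, dre-miR-206 and dre-miR-499 were followed over 4 genome compositions of *Squalius alburnoides*, a complex of cyprinid fish that arose by hybridization, and of its parental species. They were chosen by name, as the zebrafish probes of the chip that carry exactly these names, star forms left out, and they make up 6 of its 218 zebrafish miRNAs. The forms compared, all adult, were PAA, a hybrid with 3 genomes, PA, a hybrid with 2, AA, which is diploid and carries only the A genome, and *S. pyrenaicus*, which is diploid with PP. For each composition, RNA of liver, muscle and brain from about 3 individuals was pooled, labelled with Cy3 and hybridised to 1 array. The chip carries miRNA probes of several species, each given here by 1 of its names (dre, zebrafish, mmu, mouse, hsa, human, rno, rat, cel, nematode, dme, fly). Every comparison is therefore between single arrays, no test between compositions was possible, and each SE given is over the printed spots of 1 probe on 1 array.

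MiRNAs are short RNAs that guide the silencing of messenger RNAs. Those of the miR-1 and miR-133 families are made from shared primary transcripts in vertebrate heart and skeletal muscle. There miR-1 is known to promote differentiation of muscle cells, and miR-133 to regulate their proliferation and fate. MiR-206 is a relative of miR-1 with the same seed, the stretch at the start of a miRNA that pairs with its targets, and in mammals it is typical of skeletal muscle. MiR-499 lies in an intron of a myosin heavy-chain gene and is known from heart and slow muscle. In a pool of 3 tissues a lower signal can come from fewer muscle cells or from less of the miRNA in each, and these cannot be told apart.

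Each probe was printed in 4 spots, and the signal of a spot is its foreground minus its local background, in scanner units. A spot passed when it was kept in the scanner file and its foreground reached 2 times the background. A miRNA was detected on an array when at least 2 of its spots passed. Of the 6 members, all were detected on PAA, and 5 each on PA, AA and PP. A second mark is the 95th percentile of the spots labelled BLANK, taken to hold no probe, at which PAA had 103, PA 209, AA 203 and PP 516. By the mean of their passing spots, PAA had 6 members above that level, PA 1, AA 2 and PP 0. Of the detected zebrafish miRNAs as a whole, PAA had 167 of 168 above it, PA 88 of 164, AA 66 of 154 and PP 31 of 156. On PAA the BLANK level was close to the lowest signal of a detected zebrafish miRNA, 94.4, so detection there nearly fixed the count. With the highest BLANK spot as the level, 1 member each was above it on PAA, PA and AA, and 0 on PP. MiR-1 was the member above the BLANK level on 3 arrays, and the other 5 were above it on 1 or 2.

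The arrays were not alike in handling. The arrays of PAA and PA shared a slide, and those of AA and PP shared the other, so slide and composition cannot be told apart in PAA or PA against AA or PP. On each slide the first of these arrays was the upper and the second the lower one, so position cannot be told apart from composition in PAA against PA or AA against PP. *S. alburnoides* came from another river than *S. pyrenaicus*, AA fish are always male and PAA fish mainly female, and the part of river and sex was not tested. Between 7.68% (PAA) and 19.3% (PA) of the zebrafish spots had been set aside in the scanner files.

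**Figure D1:**
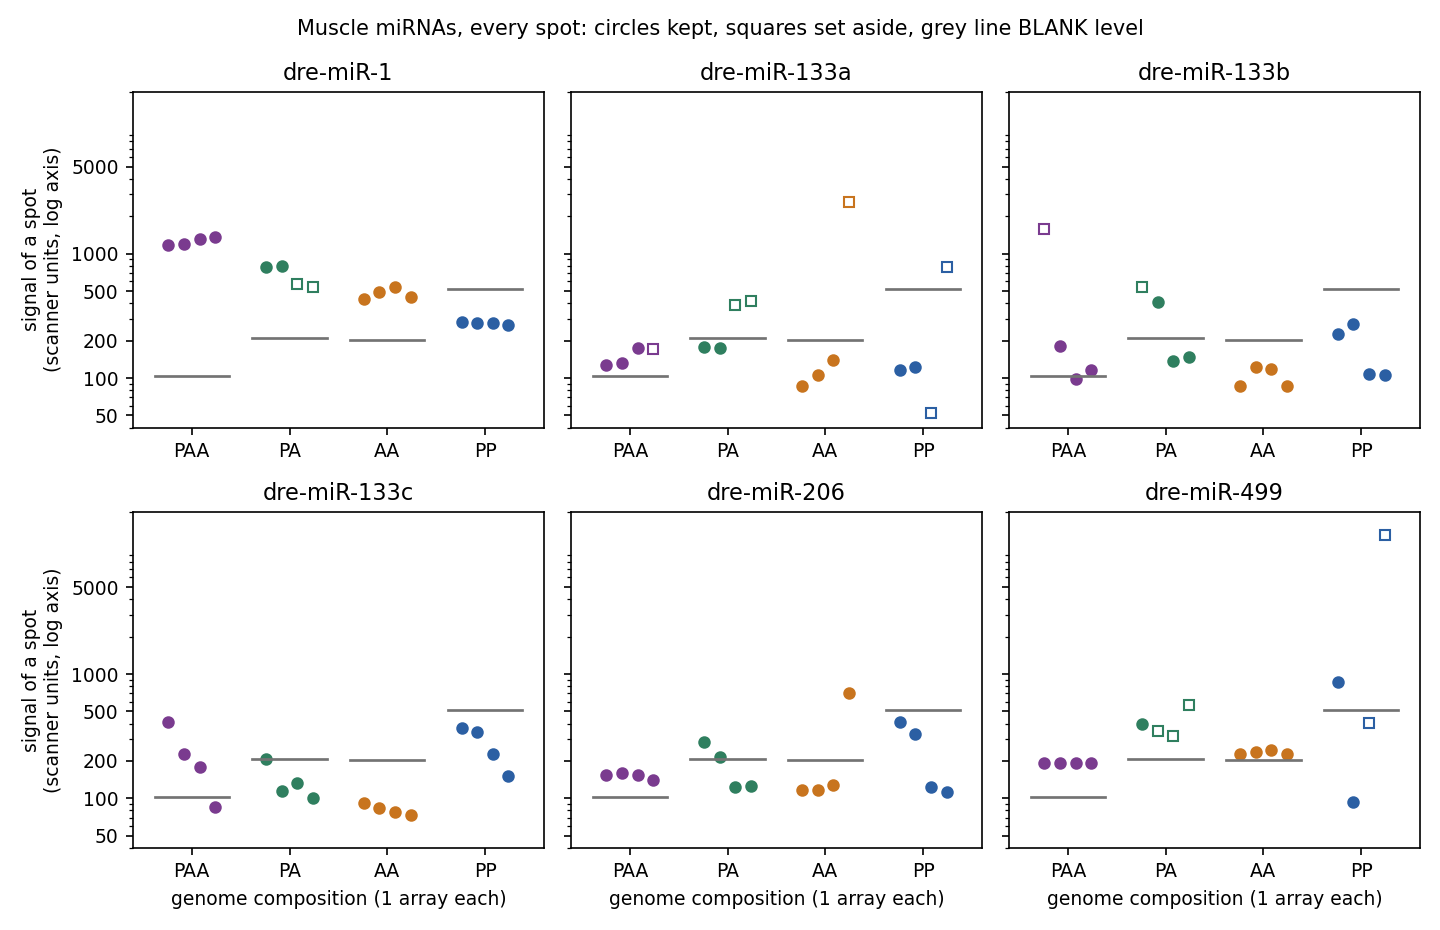
Signal of every spot of the 6 muscle miRNAs (y axis, foreground minus local background in scanner units, log axis) on the arrays of PAA, PA, AA and PP (x axis). Filled circles are spots kept, open squares spots set aside, and the grey line is the BLANK level of each array. MiR-1 steps down over the 4 arrays, with all spots of PAA at 1171 or more and all of PP at 282 or less, whereas the kept spots of the other members mostly lie at or below the grey line outside PAA.

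MiR-1 was the member that differed most between the arrays. Its 4 spots read 1171, 1196, 1324 and 1370 on PAA. On PA 2 spots were kept, at 775 and 790, in the upper rows beside high local backgrounds of 284 and 263. Another 2 were set aside, at 576 and 542, beside backgrounds of 89 and 87. On AA the spots read 435, 496, 540 and 450, and on PP 282, 276, 277 and 268. Each spot of PAA was above each of PA, each of PA above each of AA, and each of AA above each of PP, also with the 2 spots that were set aside. The geometric means of the passing spots came to 1262 in PAA, 782 in PA, 479 in AA, and 276 in the PP array. On PP miR-1 passed the limit of 2 times the background in all 4 spots but was below the BLANK level, so the folds against PP are those of a dim signal. Set against the BLANK level of PP in place of its own signal there, the unscaled signal of PAA was 2.45-fold that level. That of PA was 1.52-fold and that of AA was below it. The value of PA rests on the 2 kept spots beside high backgrounds, and the highest BLANK spot of PP, at 795, was above it.

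To compare arrays, the values were brought to a common distribution by quantile normalization over the zebrafish miRNAs, which put miR-1 at 10.11 log2 units in PAA, 9.37 in PA, 9.21 in AA, and 7.96 in the PP pool. In PAA miR-1 was then higher than in PA by 0.75 ± 0.06 log2 units (SE over spots), than in AA by 0.90 ± 0.09 and than in PP by 2.15 ± 0.06. In PA it was higher than in AA by 0.15 ± 0.07, with overlapping spots, and than in PP by 1.40 ± 0.02. In AA it was higher than in PP by 1.25 ± 0.07. A difference of 1 log2 unit is 2-fold, so miR-1 passed 2-fold in the 3 comparisons with PP and in none of the others.

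The steps between the forms depended on how the arrays were scaled. Over 5 scalings the difference of PAA to PP ranged between 1.65 and 2.20, and that of PA to PP between 1.34 and 1.505, always past 2-fold. AA exceeded PP by 1.25 on the quantile scale and 1.22 on the median scale, but by 0.74 with the total signal, 0.73 with the control spots labelled Homo and 0.80 unscaled, each short of 2-fold. With only the lower spots of every probe, normalized again on the quantile scale, AA exceeded PP by 0.36 and PAA exceeded PP by 1.34. With only the upper spots it was 1.42 and 2.22 in the same order. Unscaled, the lower spots of miR-1 itself read 540 and 450 on AA and 277 and 268 on PP. The upper ones read 435 and 496 on AA and 282 and 276 on PP. Its own spots did not show such a swing. For PAA against AA the difference was 0.90 on the quantile scale, 0.92 with the Homo spots and 0.76 on the median scale. It was larger with the total signal, at 1.31, and unscaled, at 1.40. PA exceeded AA by 0.15 on the quantile scale and by 0.71 unscaled. PAA exceeded PA by 0.75 on the quantile scale and 0.69 unscaled. With the total signal that difference was 0.60, on the median scale 0.54 and with the Homo spots 0.31. The order of PAA, PA, AA and PP from high to low was found in the mean signal of miR-1 unscaled and on the quantile, total and median scales. Unscaled, 11 of the 114 zebrafish miRNAs detected on all 4 arrays (9.65%) stood in this order, and 3 of them, miR-1, miR-196b and miR-454b, had no overlap of spots at any step.

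The order of PA also depended on how the background entered. Local background differed between and within the arrays, and its median over the upper and the lower spots was 98 and 96 in PAA, 125 and 96 in PA, 90 and 96 in AA, and 125 and 90 in the PP array. As a ratio of foreground to background, the spots of miR-1 that were kept stood at 11.0 to 15.6 in PAA, 3.73 to 4.0 in PA, 5.83 to 6.87 in AA, and 3.79 to 4.15 in the PP array. PAA was highest on both scales, but by the ratio PA fell below AA, by 0.70 log2 units, and level with PP (a difference of -0.051). By the ratio PAA exceeded PA by 1.81. The 2 spots of PA that were set aside read 7.5 and 7.2 by the same ratio, above all spots of AA. On this scale the 95th percentile of the BLANK spots was 2.61 on PP and 2.62 on PA, and all spots of miR-1 on both arrays were above it. Hence PAA was highest for miR-1 on either scale, and PA against AA changed direction with the scale. On the quantile scale too, that difference turned to -0.16 with no filter on dim spots. It was -0.073 with each probe's upper spots only, and -0.062 or -0.068 without spot 3 or spot 4 of every probe on PA. Each setting normalized the arrays again, while the miR-1 spots used on PA stayed those of 775 and 790.

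**Figure D2:**
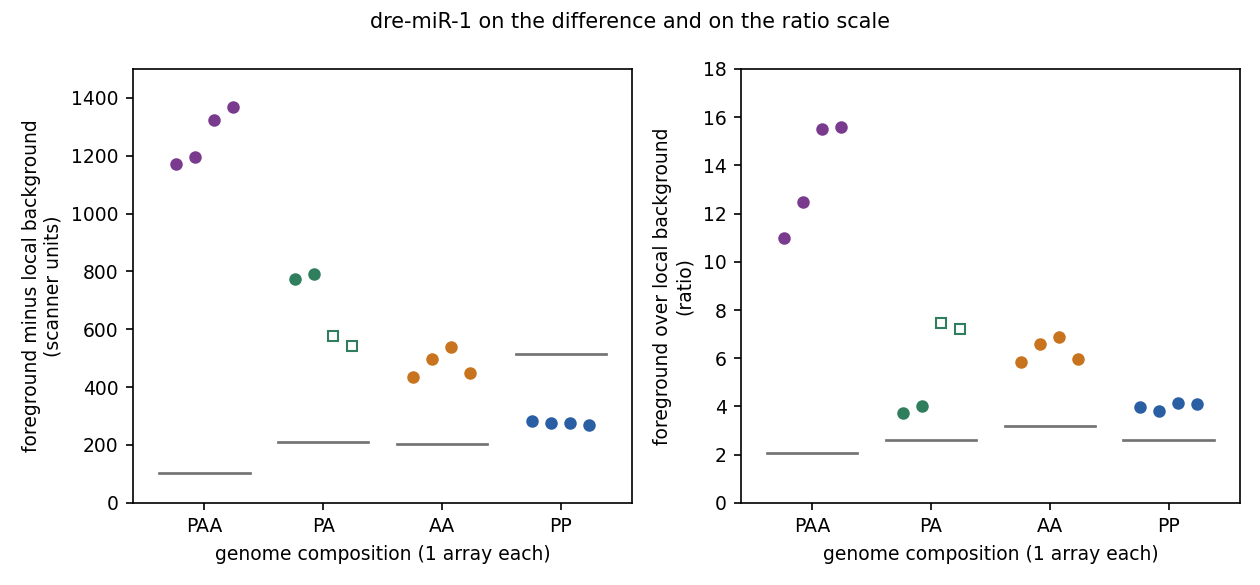
Spots of dre-miR-1 on the 4 arrays (x axis) as foreground minus local background in scanner units (left) and as the ratio of foreground to local background (right), with circles kept, squares set aside and the grey line at the 95th percentile of BLANK spots. PAA is highest in both panels, and the kept spots of PA lie above AA on the left and below it on the right.

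On the quantile scale over passing spots, none of the 3 dre-miR-133 probes passed 2-fold in a comparison with PP, as miR-1 did. Some of their differences among PAA, PA and AA were larger than those of miR-1. All 3 were above the BLANK level on PAA alone, so their folds are those of dim signals and show no contrast with miR-1. Over the spots kept, miR-133a read 127, 132 and 176 in PAA, 177 and 176 in PA, 87, 106 and 140 in AA, and 116 and 122 in PP. These kept values lie close together, at 1.97 to 2.66 times their background. Set aside were 170 in PAA, 389 and 417 in PA, 2588 in AA, and 52 and 789 in PP. The difference was -0.15 ± 0.15 log2 units for PAA to PA, 0.16 ± 0.25 for PAA to AA and 0.33 ± 0.15 for PAA to PP. For PA it was 0.31 ± 0.20 to AA and 0.48 ± 0.04 to PP, and for AA to PP 0.17 ± 0.20. The passing spots of PAA lay above those of PP, and those of PA above those of AA and of PP, without overlap, whereas the other 3 pairs overlapped. With the spots set aside included, the pairs that had been apart overlapped as well. The difference of PAA to AA was then -1.25 and that of AA to PP 1.11, both past 2-fold. MiR-133a was above the BLANK level on PAA alone.

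MiR-133b read 180, 98 and 117 in PAA, 411, 138 and 149 in PA, 86, 122, 118 and 86 in AA, and 227, 270, 108 and 105 in PP. The high spots of PA and PP lay in the upper rows of these arrays, where the local background was also high, at 325 beside the spot of 411 and at 156 and 213 beside those of 227 and 270. As ratios to the background, the kept spots of all 4 arrays stood between 1.87 and 2.46, and over the passing spots the 6 differences between arrays were between -0.01 and 0.00 log2 units. On the quantile scale they ranged between -0.37 ± 0.59, for PAA to PA, and 0.59 ± 0.51, for PA to AA, and the spots overlapped in all 6 pairs. Over the passing spots, a difference between compositions in miR-133b was not detectable at this precision. Set aside were 1571 in PAA and 542 in PA. With the spots set aside included, the difference was 1.32 for PAA to AA and 1.13 for PAA to PP, both past 2-fold.

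MiR-133c was detected on PAA, PA and PP and not on AA. Its spots read 413, 229, 180 and 85 in PAA. In PA the first spot had a foreground of 315 over a background of 109, and the others read 115, 134 and 100. In AA the spots read 91, 84, 78 and 74, and in PP 371, 339, 226 and 152. AA was below the other arrays apart from the lowest spot of PAA, and the ranges of PAA and PP overlapped. PAA exceeded PA by 0.998 ± 0.42 log2 units on the quantile scale, just short of 2-fold, with overlapping spots, and by 0.56 to 0.95 on the other scales. The difference was 0.32 ± 0.49 for PAA to PP and -0.68 ± 0.40 for PA to PP. In all 4 spots of AA the foreground was below 2 times the background, with ratios of 1.79 to 1.99, so no fold against AA is given. On PAA 1 of the 4 spots failed the same limit, at 1.91, and on PP another, at 1.77.

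MiR-206, the relative of miR-1, showed no step down from PAA to PP, but it was above the BLANK level on PAA alone. With signals this dim, whether miR-206 followed miR-1 could not be told. It read 153, 160, 155 and 140 in PAA, 282, 215, 124 and 125 in PA, 117, 116, 127 and 702 in AA, and 408, 332, 124 and 112 in PP. All 16 spots were kept and passed. The high spots of PA and PP again lay in the upper rows, beside backgrounds of 183 and 149 on PA and of 338 and 278 on PP, and 15 of the 16 spots stood at 2.19 to 2.82 times their background. The exception was the spot of 702 on AA, at 8.02 times. Without that spot position on AA the difference of PAA to AA was 0.23, against -0.56 ± 0.64 with it, that of PA to AA 0.30, against -0.49 ± 0.70, and that of AA to PP -0.43, against 0.35 ± 0.80. PAA differed from PA by -0.07 ± 0.30 and from PP by -0.21 ± 0.48, and PA from PP by -0.14 ± 0.56. The spots overlapped in all 6 pairs, so no pair differed beyond the spread of the spots, and 1 spot set the sign in 3 of them.

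MiR-499 gave even spots on 2 arrays and few usable ones on the others. On PAA it read 192, 192, 194 and 193, and on AA 226, 234, 245 and 228. Every spot of PAA was thus below every spot of AA, with a difference of -0.47 ± 0.03 log2 units on the quantile scale and -0.27 unscaled. Over 5 scalings it ranged between -0.91 and -0.27. On PA 1 spot was kept, at 397, and 3 were set aside, at 351, 317 and 569, so that miR-499 was not measured there. On PP the kept spots read 870 and 94, of which 1 passed, and the spots set aside read 407 and 13176. MiR-499 was therefore the member for which PAA was below another form without overlap, and it has no value for the other pairs.

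**Figure D3:**
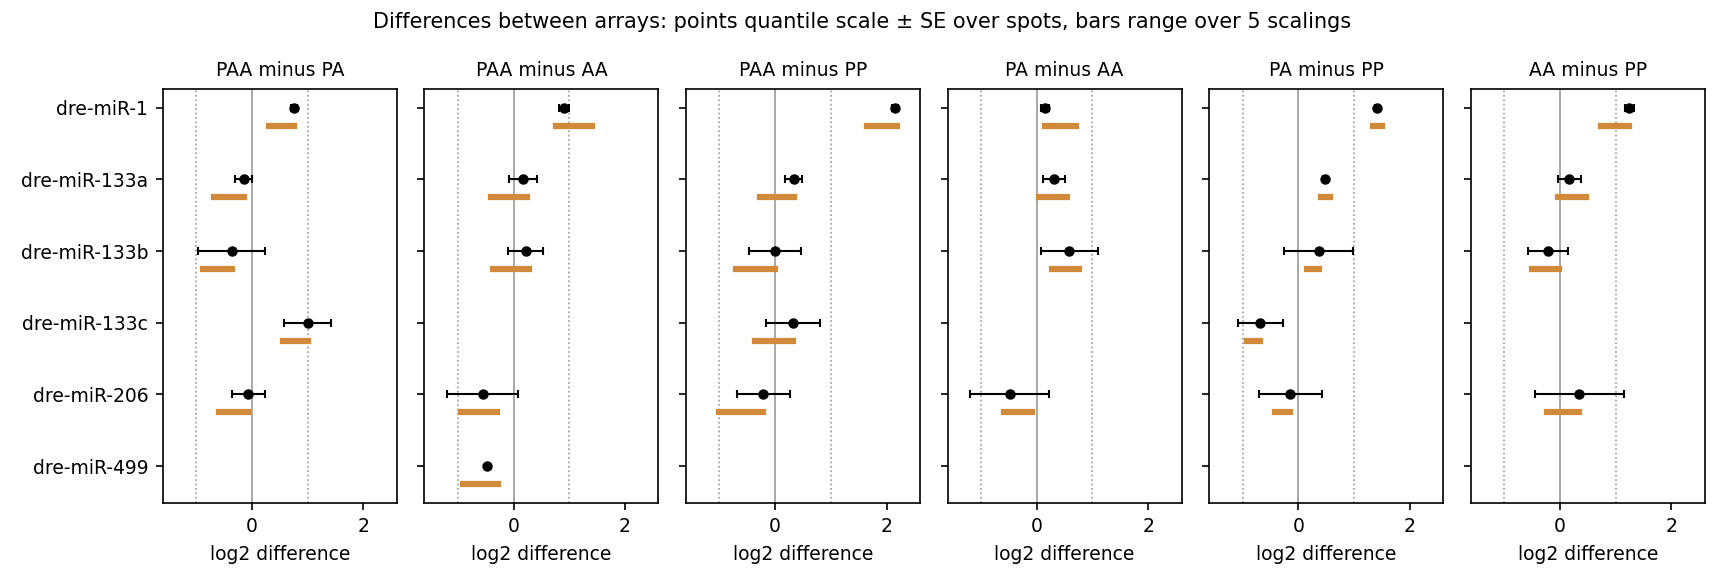
Log2 differences between arrays for the 6 muscle miRNAs, with PAA minus PA, AA and PP, PA minus AA and PP, and AA minus PP from left to right. Points are on the quantile scale with the SE over spots, orange bars span 5 scalings, and dotted lines mark 2-fold. Only miR-1 lies past 2-fold, in the 3 comparisons with PP, and its bar in AA minus PP reaches below the line at 0.73.

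Counted over the members, 0 of 5 measured passed 2-fold in PAA against PA, where 3.4% of 147 zebrafish miRNAs did, either way. In PAA against AA it was 0 of 5, beside 12.1% of 140, and in PA against AA 0 of 4, where 13 zebrafish miRNAs, or 9.77%, passed. In PAA against PP 1 of 5 passed 2-fold, beside 29.9% of 137. In PA against PP it was 1 of 5, beside 25.2% of 131, and in AA against PP 1 of 4, beside 24.6% of 130. The member was miR-1 each time it was 1.

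Spots that did not overlap between the arrays were found for 1 of 5 members in PAA against PA (31.3% of the zebrafish miRNAs), 2 of 5 in PAA against AA (49.3%) and 2 of 5 in PAA against PP (50.4%). They were found for 1 of 4 in PA against AA (47.4%), 2 of 5 in PA against PP (38.9%) and 1 of 4 in AA against PP (47.7%). These counts are near or below the shares of all zebrafish miRNAs. The median difference of the members was -0.07 log2 units in PAA against PA, where that of all zebrafish miRNAs was 0.02, and 0.16 beside 0.12 in PAA against AA. It was 0.32 beside 0.09 in PAA against PP, 0.23 beside 0.01 in PA against AA, 0.37 beside 0.02 in PA against PP, and 0.26 beside 0.01 in AA against PP. With the Homo spots the members' median was below 0 in PAA against PA, AA and PP (-0.59, -0.25 and -0.36) and in AA against PP (-0.13). The sign of this median thus depended on the scaling. From the unscaled signal, the Homo spots shift every probe of a pair by the same amount. The median of all zebrafish miRNAs shifts with it and was not computed on that scale. The sign with the Homo spots is therefore not a direction of the members apart from the whole array.

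The additive expectation asks whether a hybrid lies where its genomes would put it, at the mean of AA and PP for PA, and at the mean of 2 parts AA and 1 part PP for PAA. On the scale of the total signal miR-1 stood at 1195 in PAA, beside an expected 418, a log2 ratio of 1.52 ± 0.08. In PA it stood at 786, beside an expected 385, a log2 ratio of 1.03 ± 0.05. Both hybrids were above AA and PP, the higher of which was AA at 483. Both expected values include the signal of miR-1 on PP, which was below the BLANK level there. For PA this rests on 2 kept spots and on background subtraction. By the ratio of foreground to background PA was below AA and level with PP, and additivity was not computed on that scale. With other scalings the log2 ratio of PAA was between 1.07 and 1.62, always past 2-fold, and that of PA between 0.65 and 1.05. Past 2-fold either way were 10.5% of 124 zebrafish miRNAs in PAA and 12.1% of 116 in PA, and the medians of all of them were 0.19 and 0.14.

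The other members that could be set against additivity were within 2-fold of it, but all of them were below the BLANK level on PA, AA and PP, so both their expected values and their values in PA are those of dim signals. MiR-133a stood at 0.14 ± 0.20 log2 units in PAA and 0.52 ± 0.10 in PA, and miR-133b at 0.00 ± 0.34 and 0.49 ± 0.55. MiR-206 was below the expectation by value, at -0.46 ± 0.44 in PAA and -0.21 ± 0.49 in PA. With the spots set aside included, miR-133a in PAA turned to -1.10 and miR-133b to 1.20, both past 2-fold. MiR-133c and miR-499 lacked a value on AA or PP. The river of PP and the slide of AA and PP enter every expected value.

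**Figure D4:**
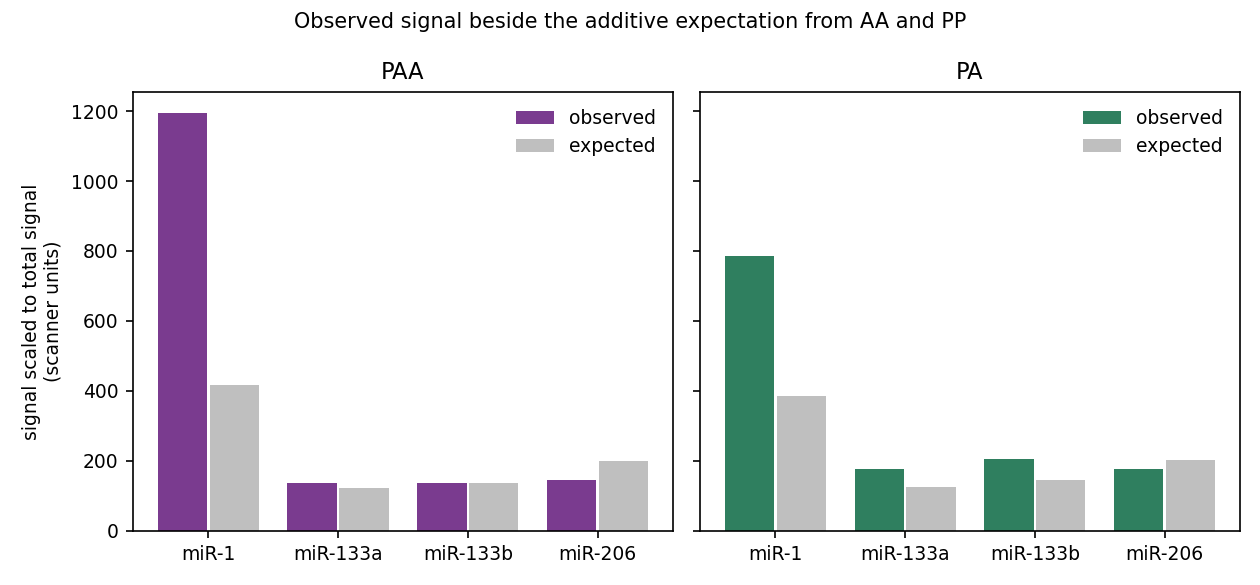
Observed signal (coloured bars) and additive expectation (grey bars) for the 4 muscle miRNAs detected on all arrays, in PAA (left) and PA (right), scaled to the total signal of each array, in scanner units on an axis that starts at 0. MiR-1 stands at 1195 beside 418 in PAA and at 786 beside 385 in PA, and none of the other 3 pairs of bars differs by 2-fold.

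The chip holds 11 further probes for miR-1, miR-133, miR-208 and miR-499 of other animals or for star forms, and 3 of them, dre-miR-133a\*, mmu-miR-133a\* and hsa-miR-208, were detected on all 4 arrays. Of these 11, a probe with several names is given by its first one, and mmu-miR-133a holds 17 names, hsa-miR-208 3 and cel-miR-1 8. Probes differ in affinity, so the levels of different probes were not set against each other, and only the pattern over the arrays was. The probe mmu-miR-133a read 1741, 1770 and 1754 on PAA, 1874, 1657 and 1539 on PA, and 1559, 1548 and 1364 on AA, with 1 further spot set aside on each, and all its spots on PP were set aside, at 1009, 955, 799 and 813. It was above the BLANK level on the 3 arrays where it was measured. Unscaled, its signal differed by 0.06 ± 0.08 log2 units between PAA and PA, 0.24 ± 0.06 between PAA and AA and 0.18 ± 0.10 between PA and AA. Unscaled, the steps of miR-1 among these forms were 0.69 for PAA minus PA, 1.40 for PAA minus AA and 0.71 for PA minus AA. Those of dre-miR-133a were -0.30, 0.24 and 0.53 in the same order. The unscaled medians of all zebrafish miRNAs were -0.05, 0.29 and 0.33, so steps of that size are shared by the whole array.

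The probe hsa-miR-208, for a miRNA of mammalian cardiac myosin genes related to miR-499, read 428, 453 and 438 in PAA, 630, 523 and 497 in PA, 319, 319 and 309 in AA, and 644, 538 and 437 in PP. On each array 1 further spot was set aside, at 91 in PAA, 702 in PA, 104 in AA, and 1902 in the PP array. Of the spots kept, those of AA were lowest, without overlap with the other arrays, whereas the spot of PAA that was set aside was below all 4 of AA. The unscaled difference was -0.32 ± 0.11 log2 units for PAA to PA, 0.48 ± 0.03 for PAA to AA, 0.79 ± 0.11 for PA to AA and -0.76 ± 0.16 for AA to PP. The unscaled medians of all zebrafish miRNAs were -0.05, 0.29, 0.33 and -0.13 in the same order. The star strands dre-miR-133a\* and mmu-miR-133a\* ranged between 82 and 369 over all their spots, with unscaled differences within 0.61 log2 units in size between arrays. The probes cel-miR-1 and rno-miR-1 were each detected on 1 array, with spots between 13 and 359, as were dme-miR-1, hsa-miR-499, rno-miR-499 and dre-miR-133b\*, and rno-miR-1\* was detected on 3. On PAA, where dre-miR-1 was highest, cel-miR-1 read 13, 20, 21 and 300, and rno-miR-1 61, 44, 47 and 102. There dme-miR-1 read 132, 80 and 65, with a further spot set aside at 0. None of these probes was detected on PAA. The step of miR-1 over the forms was therefore seen with the dre-miR-1 probe alone, and the miR-1 probes of other animals did not show it.

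**Figure D5:**
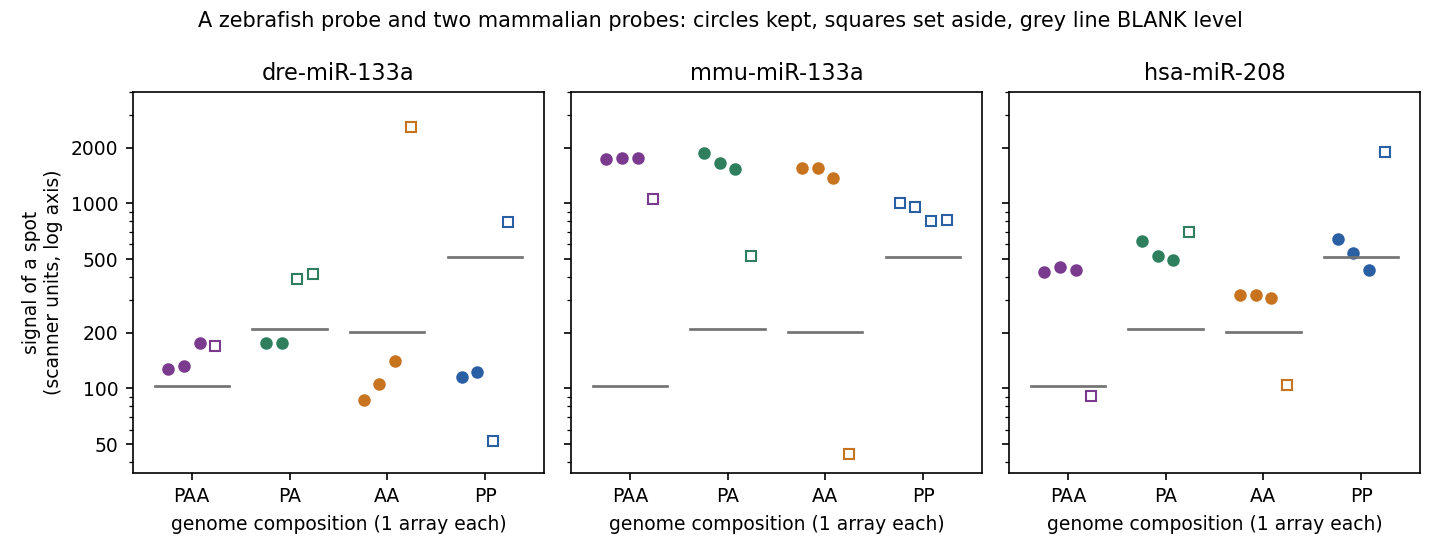
Signal of every spot (y axis, scanner units, log axis) of the probes dre-miR-133a, mmu-miR-133a and hsa-miR-208 on the 4 arrays (x axis). Circles are spots kept, squares spots set aside, and the grey line is the BLANK level. The kept spots of mmu-miR-133a stay between 1364 and 1874 on PAA, PA and AA, and all 4 of PP were set aside.

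The zebrafish miRNAs most like miR-1 over the 4 arrays, by the Euclidean distance of centred quantile profiles among the 114 detected on all of them, were miR-454b (0.31 log2 units), let-7b (0.54) and miR-10a\* (0.57). MiR-454b had signals of 657 in PAA, 448 in PA, 253 in AA, and 197 in the PP pool. None of the 3 is a member. For miR-133a the nearest were miR-19a, miR-190b and miR-155, for miR-133b miR-107, miR-29a and miR-133a, and for miR-206 miR-184, miR-365 and miR-29b. A profile of 4 values is short, and miR-206 was not among the 3 nearest of miR-1, nor miR-1 among those of the other members.

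A list of 16 miRNAs known to act in muscle growth but made in many tissues was described in the same way. In PAA against PA 10 of them were measured, 5 higher and 5 lower, and 0 passed 2-fold, beside the 3.4% of all zebrafish miRNAs given above. In PAA against PP 2 of 11 were past 2-fold higher and 1 lower, beside 29.9%, and in AA against PP 2 higher and 2 lower, beside 24.6%. Their median moved with the scaling, but the Homo spots shift all zebrafish miRNAs alike, here and in the lists below. The median was 0.00 on the quantile scale and -0.43 with the Homo spots in PAA against PA, -0.04 and -0.60 in PAA against PP, and 0.31 and -0.17 in AA against PP. Among them miR-27a differed by 0.61 ± 0.13 and miR-24 by -0.48 ± 0.05 between PAA and PA. MiR-27a was dim on PA, at 108 on the quantile scale, where the BLANK level, unscaled, was 209. Of the miRNAs of the other tissues in the pools, 3 of liver were measured in PAA against PA. Their quantile median was fixed at 0 by miR-192, which quantile normalization set to the same value on both arrays, so it says nothing on the share of liver. With the total signal the liver median was 0.04 in PAA against PA and 0.17 in PAA against PP, and with the Homo spots -0.26 and -0.23. Of 11 brain miRNAs 2 were past 2-fold higher in PAA against PA, beside 3.4% of all, miR-138 by 1.52 ± 0.12 and miR-153a by 1.02 ± 0.63. MiR-153a was dim on PA too, at 116 on the quantile scale, beside the same unscaled BLANK level of 209. In PAA against PP 3 of 10 were past 2-fold higher, beside 29.9%, and in PAA against AA 2 of 10, beside 12.1%. In PA against AA and in AA against PP 1 of 10 was higher and 1 lower, beside 9.77% and 24.6%. In PA against PP 1 of 10 was lower, beside 25.2%. The brain median was 0.29 on the quantile scale and -0.07 with the Homo spots in PAA against PA, and 0.31 and -0.07 in PAA against PP. MiR-451, made in red blood cells, differed by -0.15 ± 0.19 between PAA and PA, against the direction of miR-1. In the other 5 comparisons it went in the direction of miR-1, by 0.71 in PAA against AA, 1.48 in PAA against PP, 0.86 in PA against AA, 1.63 in PA against PP and 0.77 in AA against PP. The lists of smooth muscle (miR-143 and miR-145) and skin had none past 2-fold in PAA against PA, with medians of -0.02 and -0.01. The part that tissue shares or blood played in the steps of miR-1 was not tested.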

How the data were processed

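Per the file headers, the authors' deposited QuantArray scanner files hold a foreground and a local background intensity for each spot, with no background subtracted. In their column Ignore Filter, a 1 was taken to mark spots that count and a 0 those set aside. The sources used here do not define it, but the authors' deposited value table, a linear intensity table of 241 rows that holds 5 of the 6 members, matches to within 0.1% the geometric mean foreground of spots with 1, multiplied in PAA by 1, in PA by 0.943, in AA by 1.18, in PP by 0.963. How these factors were set is unknown, and the table was an alternative only.

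Local background was subtracted, and passing spots were averaged as log2 signal. Quantile normalization was used for differences and the total signal for additivity. Of the 218 zebrafish probes, quantile normalization took those detected on each array, 168 in PAA, 164 in PA, 154 in AA and 156 in PP. Expected values were (PP + AA)/2 for PA and (PP + 2 AA)/3 for PAA. A log2 difference of 1 was counted as past 2-fold. Members were named by rule: all 6, the 3 nearest profiles, related probes, and up to 4 examples of each list by the largest difference of PAA to PA. Members and lists were chosen with earlier results of these data known. Precision is limited by having 1 array a composition. The functions were tested on simulated data with the same low local background for every spot. Dim signals near the limit of 2 times the background were therefore hardly tried. Python 3.11.15, numpy 2.4.6, pandas 2.3.3, R 4.3.3 and limma 3.58.1 (normexp, offset 50) were used. Sequences and genome positions of the probes were not used here.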

Additional observations from a re-analysis of the deposited data

Results flagged for a closer look

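Spots that the scanner files set aside held signal above the BLANK level of their array, outside the values compared above. This was so for 13 of the 15 member spots set aside, out of 96 spots. On PAA they were 170 for miR-133a and 1571 for miR-133b. On PA they were 576 and 542 for miR-1, 389 and 417 for miR-133a, 542 for miR-133b, and 351, 317 and 569 for miR-499. On AA there was 1, at 2588 for miR-133a, and on PP there were 789 for miR-133a and 13176 for miR-499. Why these spots were set aside was not tested.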

How the results depend on the processing

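The count of members past 2-fold moved with the processing. In PAA against AA it was 1 with the total signal, with no scaling, with the authors' value table and with the ratio of foreground to background, and 2 with the spots set aside included, beside 0 as reported. In AA against PP it was 0 with the total signal, the Homo spots, no scaling, at least 3 passing spots and the ratio, 2 with no filter on dim spots and 3 with the spots set aside, beside 1. With the authors' value table the count in AA against PP was also 1, but miR-1 was short of 2-fold there, at 0.92. The member past 2-fold in that table was miR-133c, at 204 on AA and 437 on PP. In PAA against PP the count was 2 with the Homo spots and 3 with the spots set aside, beside 1. In PA against PP it was 0 with at least 3 passing spots, where miR-1 has no value on PA, 0 with the ratio, and 2 with no filter on dim spots or with the spots set aside, beside 1. In PAA against PA it was 1 with the spots set aside or the ratio, beside 0. In PA against AA no setting moved it. By the ratio the difference of miR-1 between PA and PP turned to -0.051. The cause was not tested.

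Over each printed spot left out in turn, the counts ranged from 0 to 1 in PAA against PA, PAA against AA and AA against PP, and from 0 to 2 in PA against PP, and stayed at 1 in PAA against PP and at 0 in PA against AA. Without spot 3 on AA miR-1 passed 2-fold in PAA against AA, at 1.04. Without either of the 2 kept spots of PA miR-1 had no value there. Against additivity miR-1 ranged from 1.44 to 1.62 in PAA and from 0.92 to 1.08 in PA.

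Against additivity, the log2 ratio of miR-1 in PAA was 1.21 with quantile normalization, 1.07 with the median, 1.12 with the Homo spots, 1.36 with normexp and 1.27 with the value table. In PA it was 0.65 with quantile normalization, 0.70 with the median, 0.91 with normexp and 0.85 with the spots set aside. It was 0.93 in PA with the Homo spots and 0.96 with the value table, and all of these were short of 2-fold. Of the 9 alternatives for PA, 3 were past 2-fold, at 1.05 unscaled, 1.02 with no filter on dim spots and 1.09 with the median of spots. With a foreground of at least 3 times the background, PAA had 2 detected members, PA 1, AA 2 and PP 1. With the highest BLANK spot as the level, 1 member was above it on PAA and 1 on AA, and with the median BLANK spot 5 each on PA, AA and PP. The ratio, quantile normalization for additivity and the upper or lower spots alone were chosen after seeing the data. With only the lower spots of every probe, normalized again, miR-1 in AA against PP was 0.36, short of 2-fold. In PAA against PP it was 1.34, and miR-1 had no value on PA. No paired analysis was possible because each composition has 1 array.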
